A study of Mus musculus with 12 samples.

Results

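The genes described here are 10 genes of the cartilage programme, namely 7 that encode cartilage matrix proteins (Col2a1, Col9a1, Acan, Hapln1, Comp, Matn3 and Matn4) and the SOX trio of transcription factors (Sox5, Sox6 and Sox9). They were taken by symbol from the 49585 genes counted in the series, and all 10 had enough counts to be tested among 16318 genes. Of these, Acan, Col2a1 and Matn4 were chosen on their values in these libraries, so their values and fold changes are given as a description with no test, and the test is given for the other 7. RNA was sequenced from osteoblast cultures grown from the skull caps (calvariae) of C57BL/6J pups aged 3 to 5 days after birth, either wild-type (WT) or Bcl3 knockout (Bcl3-/-). Bcl3 encodes a nuclear partner of the NF-κB subunits p50 and p52. All cultures received ascorbic acid (50 μg/mL) and β-glycerophosphate (2 mM), which start osteogenic differentiation, and were lysed on day 1 or day 3. Taking each genotype on both days gave 4 groups of 3 libraries. Each replicate pooled the cells of up to 3 calvariae, and a culture code shared between the days tied the 12 libraries to 6 cultures, 3 of each genotype. No group without osteogenic medium was analysed here.

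Hyaline cartilage is a hydrated gel held by a fibril network. The fibrils are of type II collagen (Col2a1) with type IX collagen (Col9a1) on their surface, and between them lie aggregates of aggrecan (Acan) bound to hyaluronan by link protein (Hapln1). Cartilage oligomeric matrix protein (Comp) and the matrilins (Matn3, Matn4) are adaptor proteins that bridge these networks. Sox9 is required for chondrocyte formation, and Sox5 and Sox6 act with it on Col2a1, Acan and other matrix genes. Calvarial osteoblasts form bone without a cartilage template.

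Gene counts per library ranged from 20009732 to 41953891. The labels were checked first against Bcl3 itself. On day 1 its level was 18.0, 21.8 and 17.8 CPM (reads of the gene per 1000000 reads counted) in WT libraries and 17.5, 19.7 and 19.2 CPM in those labelled Bcl3-/-, so the counts did not separate the genotypes. On day 3 it was 14.8, 15.9 and 12.8 CPM for WT against 10.2, 9.72 and 8.31 CPM for labelled Bcl3-/-. That difference passed the test (log2 fold change -0.62 ± 0.12 SE, n = 3 libraries per group, edgeR quasi-likelihood test, adjusted p = 0.00863). The exons removed in the knockout are not given in the sources used here, and counts over the whole gene do not check a deletion of part of it; the genotype is therefore used below as labelled. Type I collagen, which fibroblasts also make, dominated the osteoblast markers: Col1a1 averaged 28514 to 47491 CPM and Col1a2 10869 to 26799 CPM over the groups. Runx2, the osteoblast master factor, averaged 50.9 to 54.2 CPM, whereas the late markers Bglap (0.297 to 3.15 CPM, 3 to 121 reads per library) and Dmp1 (0.296 to 1.02 CPM, 2 to 43 reads) were low. The summed level of all 12 markers ran from 31364 to 46413 CPM in day 1 WT, from 55884 to 58538 CPM in day 1 libraries labelled Bcl3-/-, from 68349 to 73759 CPM in day 3 WT and from 69419 to 76832 CPM in day 3 libraries labelled Bcl3-/-. Of 3 chondrocyte markers outside the 10 genes, Cnmd was counted in every library (52 to 622 reads), whereas Matn1 (0 to 4 reads) and Snorc (0 to 2 reads) were at or near 0. The name cartilage programme refers to the genes and not to a cell type identified in these cultures. In bulk RNA, fewer cells of a type and less RNA per cell cannot be told apart.

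Among the WT cultures, replicates 1 and 3 lay at opposite ends for some of these genes. Replicate 3 had the lowest Col2a1, Acan, Col9a1 and Comp of its group on both days, and the highest Matn4. Replicate 1 had the highest Col2a1, Col9a1, Hapln1 and Sox5 of its group on both days, and the lowest Matn4. Fold changes that replicate 3 moved most are given with and without it, and some also without replicate 1.

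Levels can be compared between genes only per length, and the order was read on both length-scaled measures available. By CPM per kilobase of exon, averaged over the 12 libraries, the order was Col2a1 (87.2), Sox9 (33.4), Matn4 (24.1), Comp (4.95), Hapln1 (4.71), Col9a1 (3.03), Acan (1.94), Sox6 (1.15), Matn3 (0.920) and Sox5 (0.538). Each neighbour in this order overlapped the next in its range over the libraries. By the deposited FPKM the order began with Col2a1 (168), Matn4 (53.1) and Sox9 (33.6). Sox6 moved up to rank 4 with 14.9 FPKM and Sox5 to rank 7 with 5.32 FPKM. For these last genes FPKM exceeded CPM per kilobase by 12.6-fold and 10.1-fold (median over libraries), against 1.01-fold to 2.22-fold for the other 8 genes. Their exons cover 14832 and 14376 bases of GENCODE M21 in all, and the length used for the deposited FPKM is not given in the sources used here, so no rank is claimed for them.

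**Figure D1:**
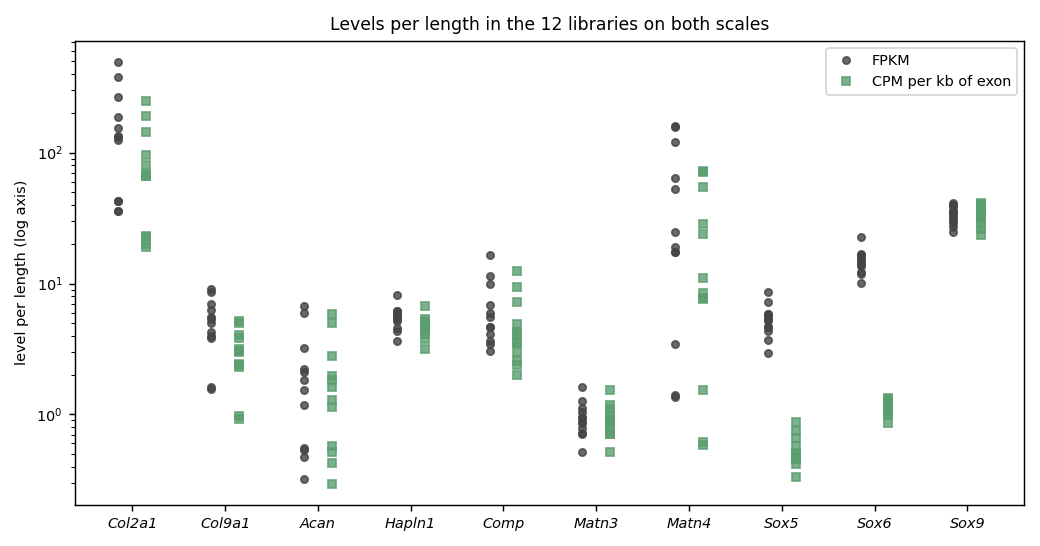
Level of each gene in the 12 libraries per length on a log axis, as the deposited FPKM (circles) and as CPM per kilobase of annotated exon (squares); each point is 1 library. Matn4 and Acan span the widest ranges on this axis, and Sox5 and Sox6 are the genes for which the scales lie far apart.

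The shares of Col2a1 and Matn4 in the summed CPM of the 10 genes differed between the groups. Both genes were chosen on their values in these libraries, so this is a description, and nothing about the set is read from it. Col2a1 took 75.6% to 90.4% of the summed CPM of the 10 genes in day 1 WT libraries and 22.2% to 26.3% in day 3 libraries labelled Bcl3-/-. Matn4 took 0.119% to 0.944% in the former and 42.1% to 45.6% in the latter. In day 1 libraries labelled Bcl3-/- Col2a1 held 69.5% to 73.4% and Matn4 3.59% to 4.49% of the sum. Day 3 WT libraries were widely spread, with 36.4% to 80.5% for Col2a1, which overlapped day 1 WT, and 3.50% to 25.9% for Matn4. In day 1 WT the CPM per kilobase of Col2a1 (69.0 to 250) was above that of Sox9 (23.5 to 28.0), which was above that of Matn4 (0.586 to 1.54). In day 3 libraries labelled Bcl3-/- the order of these 3 genes was Matn4 (54.5 to 72.9), Sox9 (31.2 to 41.1) and Col2a1 (19.1 to 23.0), with no overlap between them. By FPKM, Matn4 was likewise highest in that group (120 to 159), while Col2a1 (35.7 to 42.8) and Sox9 (30.6 to 39.5) overlapped.

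**Figure D2:**
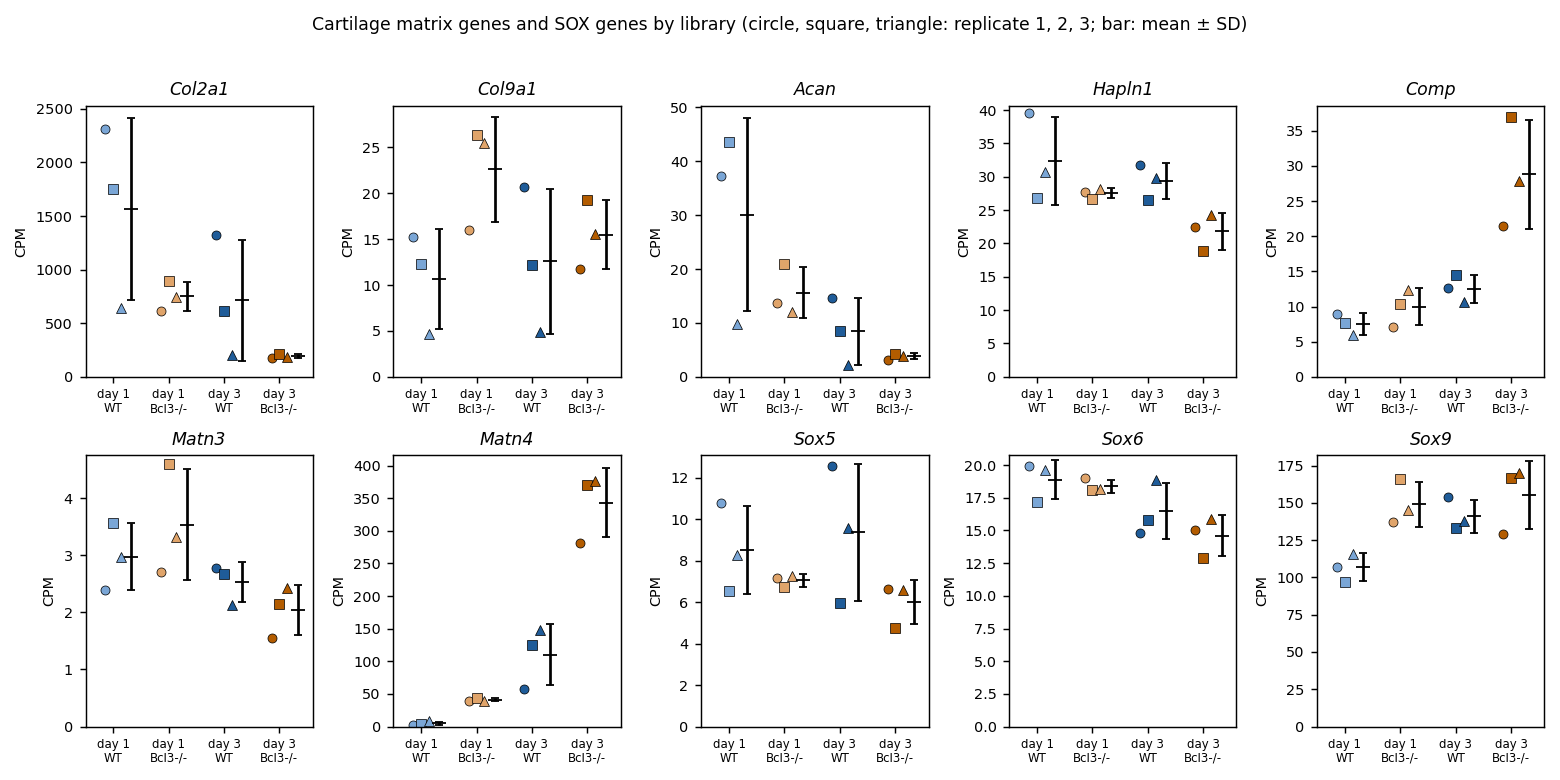
CPM of each of the 10 genes in every library, with the group mean ± SD beside the points; circles, squares and triangles mark replicates 1, 2 and 3 of a group. The means of Col2a1 and Acan are lowest in day 3 libraries labelled Bcl3-/-, where those of Matn4 and Comp are highest, and the SOX genes span less than 3-fold.

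Col2a1 (chromosome 15, 97975602 to 98004695, minus strand, GRCm38; 56 exon blocks) encodes the chain of type II collagen. On day 1 its level was 2310, 1749 and 638 CPM for WT against 616, 891 and 746 CPM for labelled Bcl3-/-. On day 3 it was 1323, 614 and 208 CPM for WT against 176, 213 and 184 CPM for labelled Bcl3-/-. WT replicates 1 and 2 were above every library labelled Bcl3-/- on both days, and WT replicate 3 was within their range. The fitted log2 fold change between genotypes (labelled Bcl3-/- minus WT) was -1.06 ± 0.53 (SE) on day 1 and -1.90 ± 0.55 on day 3. Without WT replicate 3 these became -1.43 ± 0.50 and -2.34 ± 0.43, and without WT replicate 1 they were -0.68 ± 0.57 and -1.11 ± 0.47. From day 1 to day 3 the log2 fold change was -1.13 ± 0.54 in WT and -1.98 ± 0.55 in the cultures labelled Bcl3-/-. In WT it was -1.93 ± 0.51 without replicate 1 on day 3 and -0.69 ± 0.44 without replicate 3 on day 3. Taken culture by culture, the level was lower on day 3 in all 6, with log2 changes of -0.80, -1.51 and -1.61 in WT and -1.80, -2.07 and -2.02 in the cultures labelled Bcl3-/-.

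Acan (chromosome 7, 79053483 to 79115099, plus strand; 18 exon blocks) encodes aggrecan, the large chondroitin sulfate proteoglycan that gives cartilage its swelling pressure. Its day 1 levels were 37.2, 43.5 and 9.75 CPM for WT against 13.7, 21 and 12.1 CPM for labelled Bcl3-/-. Its day 3 levels were 14.6, 8.53 and 2.21 CPM for WT against 3.19, 4.27 and 3.89 CPM for labelled Bcl3-/-. As for Col2a1, WT replicates 1 and 2 were above all libraries labelled Bcl3-/- of the same day, and WT replicate 3 was below all of them. The fitted log2 fold change between genotypes was -0.95 ± 0.56 (SE) on day 1 and -1.14 ± 0.63 on day 3. WT replicate 3 held these values down: without it they were -1.37 ± 0.49 and -1.61 ± 0.52. Without WT replicate 2 on day 1 the first was -0.57 ± 0.61, and without WT replicate 1 on day 3 the second was -0.49 ± 0.64. Over time the log2 fold change was -1.85 ± 0.58 in WT and -2.04 ± 0.62 in the cultures labelled Bcl3-/-. In WT it was -2.30 ± 0.50 and -1.38 ± 0.51 without replicate 3 on day 1 or day 3, and -2.51 ± 0.64 without replicate 1 on day 3. The level was lower on day 3 in all 6 cultures, with log2 changes from -2.34 to -1.35 in WT and from -2.28 to -1.62 in the others.

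**Figure D3:**
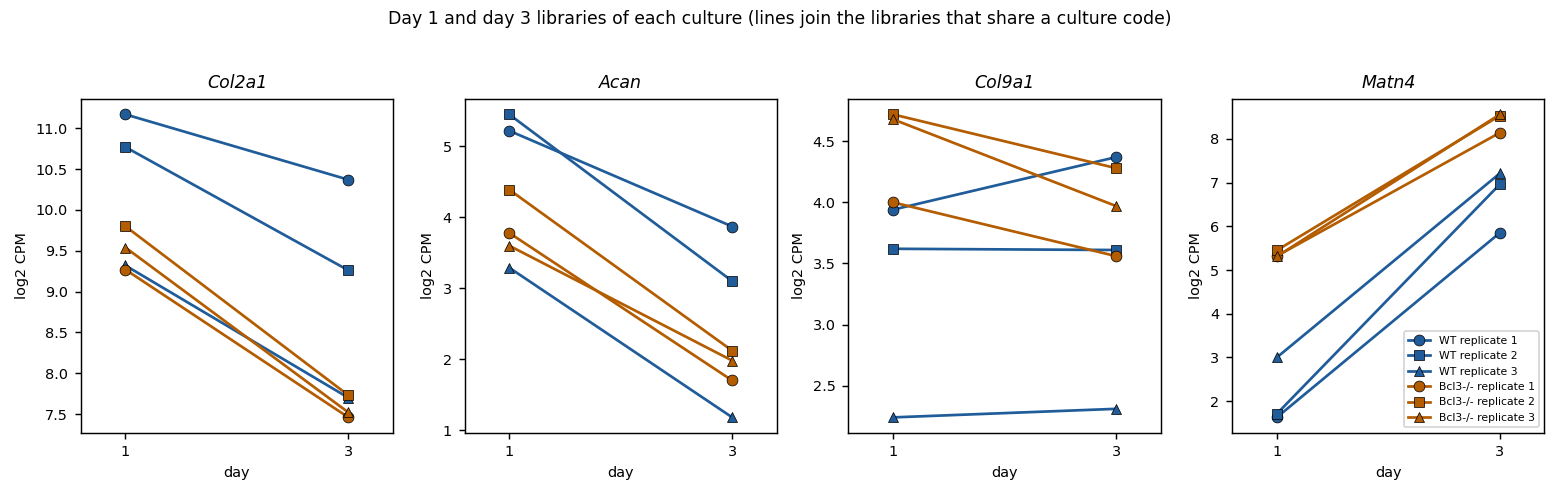
Log2 CPM of Col2a1, Acan, Col9a1 and Matn4 on day 1 and day 3, with a line joining the libraries of each culture; blue is WT and orange is labelled Bcl3-/-. Col2a1 and Acan are lower and Matn4 is higher on day 3 in all 6 cultures, and WT replicate 3 (blue triangles) is the lowest WT culture for Col2a1, Acan and Col9a1 and the highest for Matn4.

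Upstream sequence was compared for the genes that RefSeq promoter windows were given for. These were 14 windows of the 250 bases before an annotated start, for 7 of the 10 genes (build GRCm38.p6); Col2a1, Comp and Sox9 had none. Each window was searched on both strands for AACAAT, the core letters that SOX proteins bind, and for GGG followed after any 5 bases by CC, a loose form of the NF-κB site, taken because BCL3 acts through p50 and p52. The latter can match on both strands at 1 place. AACAAT was in 1 of the 14 windows of these genes and in 9.42% of the 32851 windows of all genes. The NF-κB-like letters were in 8 of the 14 and in 45.8% of all windows. The windows shown are those of Acan, which was lower on day 3 in every culture, and of the start of Sox6 that held the only SOX letters. The Acan window lies at chr7:79052976-79053225 on the plus strand, outside annotated exons, and its match (95 bases before the start, on both strands) is in capitals. The Sox6 window lies at chr7:115824711-115824960 on the minus strand, also outside exons, and its matches, on opposite strands, are in capitals.
Acan: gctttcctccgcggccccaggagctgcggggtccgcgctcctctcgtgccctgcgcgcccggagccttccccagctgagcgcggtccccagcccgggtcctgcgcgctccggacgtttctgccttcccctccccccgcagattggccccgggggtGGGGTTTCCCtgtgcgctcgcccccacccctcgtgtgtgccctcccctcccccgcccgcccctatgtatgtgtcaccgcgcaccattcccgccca
Sox6: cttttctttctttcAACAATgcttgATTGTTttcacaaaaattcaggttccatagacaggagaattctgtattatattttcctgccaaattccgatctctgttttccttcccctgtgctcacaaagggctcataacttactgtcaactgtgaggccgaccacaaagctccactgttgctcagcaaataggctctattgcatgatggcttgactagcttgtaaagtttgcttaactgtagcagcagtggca
Of the 2 Matn4 windows, the outer one held no match. The inner one held the NF-κB-like letters at 132 and 70 bases before the start, and 197 of its 250 bases lie in exons of the gene Rbpjl on the other strand, so only the letters around each match are given, at chr2:164404931-164404960 and chr2:164404869-164404898 on the minus strand.
Matn4, outer match: ggcaagagtcGGGCGCGTCCttggaagccc
Matn4, inner match: tccgcctcttGGGGCTCTCCtctgggaagt
A match describes letters only, and no binding was measured.

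Matn4 (chromosome 2, 164389393 to 164405160, minus strand; 12 exon blocks) encodes matrilin 4, a widely expressed matrilin. On day 1 it was at 3.03, 3.21 and 7.96 CPM for WT against 39.8, 43.5 and 39.7 CPM for labelled Bcl3-/-. On day 3 it was at 57.5, 125 and 148 CPM for WT against 282, 370 and 377 CPM for labelled Bcl3-/-. The groups did not overlap on either day, and no day 3 library overlapped a day 1 library of the same genotype. The mean was 4.73 ± 2.80 CPM (SD, n = 3) in day 1 WT, 41.0 ± 2.20 in day 1 labelled Bcl3-/-, 110 ± 47.0 in day 3 WT and 343 ± 53.0 in day 3 labelled Bcl3-/-. The libraries labelled Bcl3-/- were thus 8.5-fold higher on day 1 (log2 3.09 ± 0.38 SE) and 3.12-fold higher on day 3 (1.64 ± 0.34). Between the days the level was 22.8-fold higher in WT (4.51 ± 0.40) and 8.37-fold higher in the cultures labelled Bcl3-/- (3.07 ± 0.36). Without WT replicate 3 on day 1, the day 1 genotype difference was 3.71 ± 0.38 and the WT time difference 5.12 ± 0.40. Its exons share 149 bases (2.9% of their length) with exons of Rbpjl on the opposite strand. Rbpjl had 2 to 255 reads per library, lowest in day 1 WT (0.0905 to 0.137 CPM) and highest in day 3 labelled Bcl3-/- (6.00 to 8.26 CPM), so its order followed that of Matn4 at a far lower level. Whether reads were counted by strand is not given, and the part of shared reads in Rbpjl was not tested.

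Col9a1 (chromosome 1, 24177610 to 24252684, plus strand) encodes a chain of type IX collagen. Its day 1 levels were 15.2, 12.3 and 4.66 CPM for WT against 16.0, 26.4 and 25.5 CPM for labelled Bcl3-/-. These groups did not overlap, but the difference did not pass the test over all genes (log2 1.09 ± 0.47 SE, adjusted p = 0.148). Without WT replicate 3 it was 0.72 ± 0.45 (adjusted p = 0.320). Its day 3 levels were 20.7, 12.2 and 4.89 CPM for WT against 11.7, 19.3 and 15.6 CPM for labelled Bcl3-/-, which overlapped (0.32 ± 0.47, adjusted p = 0.712). WT replicate 3 was the lowest library on both days, and without it the day 3 difference was -0.08 ± 0.41. In the cultures labelled Bcl3-/- the level was lower on day 3 in each of the 3 cultures (log2 changes of -0.45, -0.45 and -0.70). Paired by culture, with the culture as replicate block, this change passed the test (-0.53 ± 0.11, edgeR adjusted p = 0.00582), whereas without the block it did not (-0.54 ± 0.47, adjusted p = 0.404). In WT the change with time was 0.44, -0.01 and 0.07 log2 units by culture (0.23 ± 0.47 in the fit, adjusted p = 0.740).

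Hapln1 (chromosome 13, 89539796 to 89611652, plus strand) encodes the link protein that locks aggrecan onto hyaluronan. Its levels were 39.6, 26.8 and 30.7 CPM in day 1 WT and 27.7, 26.7 and 28.2 CPM in day 1 libraries labelled Bcl3-/-. They were 31.8, 26.5 and 29.8 CPM in day 3 WT and 22.4, 18.8 and 24.3 CPM in day 3 libraries labelled Bcl3-/-. The last group lay below all other libraries, but neither the day 3 genotype difference (log2 -0.43 ± 0.14 SE, adjusted p = 0.0652) nor the time difference in the cultures labelled Bcl3-/- (-0.34 ± 0.14, adjusted p = 0.0763) passed the test. Paired by culture, the latter passed (replicate block, -0.34 ± 0.09, adjusted p = 0.0178). The day 3 genotype difference passed with DESeq2 (adjusted p = 0.0346) and with no count filter (edgeR, 0.0167). It also passed with the replicate number of the title as block (edgeR, 0.0275), but not with the culture as random effect (limma, 0.0509). The day 1 genotype difference (-0.23 ± 0.13, adjusted p = 0.296) and the WT time difference (-0.13 ± 0.13, adjusted p = 0.471) did not pass.

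Comp (chromosome 8, 70373558 to 70382066, plus strand) encodes the pentameric cartilage oligomeric matrix protein, which is also made in tendon and ligament. Its levels were 8.95, 7.63 and 5.97 CPM in day 1 WT and 7.10, 10.4 and 12.3 CPM in day 1 libraries labelled Bcl3-/-, which overlapped (log2 0.41 ± 0.24 SE, adjusted p = 0.292). On day 3 it was at 12.6, 14.5 and 10.6 CPM for WT against 21.5, 37.0 and 27.8 CPM for labelled Bcl3-/-. All day 3 libraries labelled Bcl3-/- were above all WT libraries, and Comp was 2.30-fold higher (1.20 ± 0.23, adjusted p = 0.00824). Comp rose with time by 2.90-fold in the cultures labelled Bcl3-/- (1.54 ± 0.24, adjusted p = 0.000486) and by 1.68-fold in WT (0.75 ± 0.24, adjusted p = 0.0262). The genotype difference on day 3 and the rise in the cultures labelled Bcl3-/- passed under every alternative run. The rise in WT was lost when a single WT library was left out, namely replicate 2 (adjusted p = 0.0716) or 3 (0.104) of day 1 or replicate 1 (0.0510) or 2 (0.0899) of day 3, and on log2(FPKM + 1) with all libraries kept (limma, 0.126). The difference between these rises, 0.79 ± 0.33, did not pass (edgeR adjusted p = 0.356). Of 8 tendon and ligament markers, all measured and none at 0 throughout, 5 rose and 1 fell with time in each genotype. On day 3, 1 marker was higher in them (Tnmd, log2 0.87 ± 0.20 SE, adjusted p = 0.0179), against 4.78% of all genes. In the other direction, 1 was lower (Scx, -0.58 ± 0.14, adjusted p = 0.0216), against 5.60%. The summed level of the 8 markers was carried mostly by Tnc, Fmod and Tnmd. It ran from 2421 to 2629 CPM in day 1 WT and from 2793 to 2882 CPM in day 1 labelled Bcl3-/-. On day 3 it ran from 2736 to 3423 CPM in WT and from 3398 to 4294 CPM in labelled Bcl3-/-. The part of such cells in the change of Comp was not tested.

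Matn3 (chromosome 12, 8947929 to 8972028, plus strand) encodes matrilin 3, which is largely confined to cartilage, and it had few reads (46 to 157 per library). Its levels were 2.40, 3.57 and 2.98 CPM in day 1 WT and 2.71, 4.60 and 3.33 CPM in day 1 libraries labelled Bcl3-/-. They were 2.78, 2.67 and 2.13 CPM in day 3 WT and 1.56, 2.14 and 2.42 CPM in day 3 libraries labelled Bcl3-/-. The genotypes overlapped on both days (adjusted p = 0.582 and 0.453), as did the days in WT (adjusted p = 0.432). In the cultures labelled Bcl3-/- Matn3 fell 1.75-fold (log2 -0.80 ± 0.24 SE, adjusted p = 0.0243), with no overlap between the days. The call was lost on log2(FPKM + 1) with all libraries kept (limma, adjusted p = 0.0511). It was also lost without day 1 labelled Bcl3-/- replicate 2 (adjusted p = 0.115) or 3 (0.0501), or day 3 replicate 1 (0.0918) or 2 (0.0554).

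Of the SOX trio, Sox9 (chromosome 11, 112782224 to 112787760, plus strand; 3 exon blocks) was the highest. Its day 1 levels were 107, 97.1 and 116 CPM for WT against 137, 166 and 145 CPM for labelled Bcl3-/-. Its day 3 levels were 154, 133 and 138 CPM for WT against 129, 167 and 170 CPM for labelled Bcl3-/-. Day 1 WT was below every other library, and the other 3 groups overlapped. Sox9 was 1.40-fold higher in libraries labelled Bcl3-/- on day 1 (log2 0.48 ± 0.11 SE, adjusted p = 0.0141), and it rose 1.33-fold with time in WT (0.41 ± 0.11, adjusted p = 0.0139). The genotype difference on day 3 (0.14 ± 0.11, adjusted p = 0.489) and the change with time in the cultures labelled Bcl3-/- (0.06 ± 0.11, adjusted p = 0.734) did not pass. The difference between the day 1 and day 3 genotype effects was -0.35 ± 0.16 and did not pass either (adjusted p = 0.419). The day 1 call was lost without day 1 WT replicate 1 (adjusted p = 0.0507) or 2 (0.0639) or day 1 labelled Bcl3-/- replicate 2 (0.0610), and the rise with time was lost without replicate 2 of day 1 (0.0722) or replicate 1 of day 3 (0.0504), and on log2(FPKM + 1) with all libraries kept (limma, 0.0743).

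The order of the groups by Sox9 differed from that by Col2a1 and Acan. In day 1 WT, where Col2a1 and Acan had their highest means (1565 ± 851 and 30.1 ± 17.9 CPM, SD, n = 3), Sox9 had its lowest mean (107 ± 9.33 CPM). In day 3 libraries labelled Bcl3-/-, where Col2a1 and Acan had their lowest means (191 ± 19.3 and 3.78 ± 0.552 CPM), Sox9 was at 155 ± 22.8 CPM. This order is a description, since Col2a1 and Acan were chosen on their values.

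Sox6 (chromosome 7, 115470872 to 116038796, minus strand) and Sox5 (chromosome 6, 143828425 to 144781977, minus strand) encode SOXD proteins, which lack an activation domain and act as partners of Sox9. Sox6 varied by 1.55-fold over the 12 libraries in CPM, the least of the 10 genes, though by 2.25-fold in FPKM, where Sox9 varied least (1.67-fold). It was at 19.9, 17.2 and 19.6 CPM in day 1 WT and at 19.0, 18.1 and 18.2 CPM in day 1 libraries labelled Bcl3-/-. On day 3 it was at 14.8, 15.8 and 18.9 CPM for WT against 15.0, 12.9 and 15.9 CPM for labelled Bcl3-/-. Sox6 fell 1.27-fold with time in the cultures labelled Bcl3-/- (log2 -0.34 ± 0.11 SE, adjusted p = 0.0341), with no overlap. Its genotype differences (adjusted p = 0.874 on day 1 and 0.332 on day 3) and its WT time difference (-0.20 ± 0.11, adjusted p = 0.187) did not pass. The fall was lost without day 1 labelled Bcl3-/- replicate 1 (adjusted p = 0.10), 2 (0.0695) or 3 (0.0791), without day 3 replicate 1 (0.0579) or 2 (0.132), and on log2(FPKM + 1) (limma, 0.345).

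Sox5 was at 10.8, 6.56 and 8.26 CPM in day 1 WT, 7.15, 6.72 and 7.28 CPM in day 1 libraries labelled Bcl3-/-, 12.6, 5.98 and 9.56 CPM in day 3 WT and 6.63, 4.76 and 6.57 CPM in day 3 libraries labelled Bcl3-/-. WT replicate 2 was the lowest WT library on both days, below all libraries labelled Bcl3-/- on day 1 and within their range on day 3. No comparison of Sox5 passed the test; the largest was the day 3 genotype difference (log2 -0.65 ± 0.25 SE, adjusted p = 0.120), which was -0.89 ± 0.21 without day 3 WT replicate 2 (adjusted p = 0.0336) but -0.38 ± 0.24 without replicate 1 (adjusted p = 0.438) and -0.50 ± 0.27 without day 3 labelled Bcl3-/- replicate 2 (adjusted p = 0.338). Its exons share 1330 bases (9.3%) with the antisense gene Sox5os1, which had 0 to 2 reads per library.

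Counted by comparison, few of the 7 tested genes passed, and on so few genes a share near the background says nothing about the set. Between genotypes on day 1, 1 of 7 was higher (Sox9) and 0 were lower, whereas 9.03% of all 16318 genes were called higher and 6.26% lower. On day 3, 1 of 7 was higher (Comp) and 0 were lower, against 4.78% and 5.60% of all genes. With time in WT, 2 of 7 rose (Comp and Sox9) and 0 fell, against 20.6% and 17.9%. With time in the cultures labelled Bcl3-/-, 1 of 7 rose (Comp) and 2 fell (Matn3 and Sox6), against 16.2% and 17.2%. With the culture as replicate block, 1 of 7 rose and 4 fell (Col9a1 and Hapln1 in addition), against 17.1% and 18.0% of all genes in that fit. In the test of whether the genotype effect differed between the days, 0 of 7 passed (0 with DESeq2), against 1.12% of all genes, and 1 of 7 was at an unadjusted p under 0.05, against 12.0% of all genes. At an unadjusted p under 0.05, the genotype comparisons had 2 of 7 on day 1 and 3 on day 3, against 28.7% and 26.7% of all genes. The time comparisons had 2 of 7 in WT and 4 in the cultures labelled Bcl3-/-, against 46.8% and 43.8%.

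Groups that did not overlap were counted for the same 7 genes. Between genotypes on day 1, 2 of 7 (Col9a1 and Sox9) had every library labelled Bcl3-/- above every WT library and 0 had them below, against 19.4% and 18.9% of all genes. On day 3 Comp lay wholly above and Hapln1 wholly below, 1 of 7 each, against 13.1% and 15.6%. With time in WT, 2 of 7 (Comp and Sox9) were higher in every day 3 library and 0 lower, against 25.1% and 23.7%. With time in the cultures labelled Bcl3-/-, 1 was higher (Comp) and 4 were lower (Hapln1, Matn3, Sox5 and Sox6), against 23.3% and 23.9%. The median log2 fold change of the 7 genes was 0.23 and -0.18 between genotypes on day 1 and day 3, and 0.15 and -0.34 with time in WT and in the cultures labelled Bcl3-/-, where the median of all genes was within 0.01 of 0.00. Over all 10 genes, with the 3 chosen on their values, it was 0.10, -0.25, 0.01 and -0.34, and nothing is read from it.

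**Figure D4:**
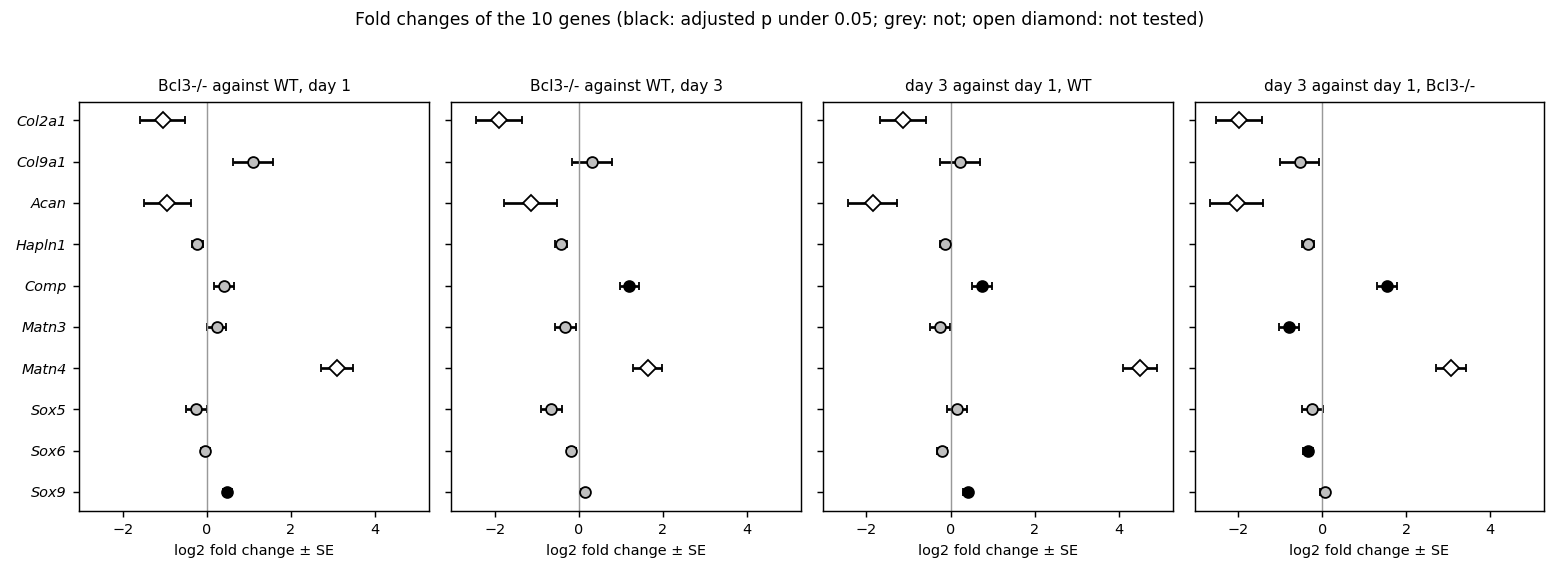
Log2 fold change ± SE of the 10 genes in the 4 comparisons; black circles passed an adjusted p of 0.05 over all genes, grey circles did not, and open diamonds (Col2a1, Acan and Matn4) were not tested. Matn4 lies farthest to the right in every panel, from 1.64 to 4.51, and Col2a1 and Acan lie to the left of 0 in every panel.

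Other genes of the cartilage programme did not share one direction with Col2a1 and Acan. Of all 16318 genes, 20.6% rose and 17.9% fell with time in WT, and 16.2% and 17.2% in the cultures labelled Bcl3-/-. Between genotypes, 9.03% were higher and 6.26% lower on day 1, and 4.78% and 5.6% on day 3. The counts of this list and of the lists that follow stand beside these shares. Of 6 other cartilage collagens, 5 rose with time in WT and 4 in the cultures labelled Bcl3-/-, with 0 falling in either, and 3 on day 1 and 2 on day 3 were higher in libraries labelled Bcl3-/-, with 0 lower. Their median log2 fold changes were 1.14 and 0.53 with time and 0.77 and 0.06 between genotypes. Col11a1, a chain of the type XI collagen that nucleates type II fibrils, had the highest level of this list (mean 68.3 FPKM) and rose with time in WT (1.20 ± 0.08 SE, adjusted p = 6.34e-06). Col9a2 (2.37 ± 0.31, adjusted p = 0.000118) and Col9a3 (1.74 ± 0.22, adjusted p = 8.92e-05), the partner chains of Col9a1 in type IX collagen, rose in WT as well, and so did Col27a1 (0.75 ± 0.12, adjusted p = 0.000527). Col10a1, the collagen of hypertrophic chondrocytes, had only 7 to 56 reads per library and passed in no comparison.

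Of 17 other cartilage matrix proteins, 12 were measured (Matn1, Chad, Snorc, Cytl1 and Scrg1 were too low). With time 7 rose in each genotype, 1 fell in WT and 2 fell in the cultures labelled Bcl3-/-. Between genotypes 4 were higher on day 1 and 2 on day 3 in libraries labelled Bcl3-/-, with 0 lower. The medians were 1.19 and 0.78 with time and 0.93 and 0.62 between genotypes. Epyc, a small leucine-rich proteoglycan of the growth plate (log2 3.19 ± 0.30 SE with time in WT, adjusted p = 1.64e-05), Matn2 (1.42 ± 0.17, adjusted p = 6.38e-05) and Ucma (3.51 ± 0.52, adjusted p = 0.000271) rose. Prg4, the lubricant of the joint surface, fell (-2.21 ± 0.30, adjusted p = 0.000132). Fmod, a collagen-binding proteoglycan that is also a tendon gene, had the highest level (mean 356 FPKM). Among the matrilins in WT, Matn2 thus rose, Matn3 did not pass, and Matn1 was near 0. Matn4, which was not tested, was 22.8-fold higher on day 3 in WT.

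The 8 cartilage matrix proteases gave 7 higher and 0 lower between genotypes on day 1, and 3 and 0 on day 3. With time they gave 7 and 0 in WT, and 4 and 0 in the cultures labelled Bcl3-/-. The medians were 0.60, 0.46, 0.69 and 0.59 in the order of these comparisons. Mmp13, the collagenase that cleaves type II collagen, rose with time in WT (log2 3.09 ± 0.18 SE, adjusted p = 1.99e-06) and was the highest of the list (mean 235 FPKM). Mmp3 rose in WT too (3.20 ± 0.37, adjusted p = 4.73e-05). Htra1 rose in the cultures labelled Bcl3-/- (1.52 ± 0.12, adjusted p = 3.67e-06), and the aggrecanase Adamts5 was higher in libraries labelled Bcl3-/- on day 1 (0.71 ± 0.12, adjusted p = 0.00243). Proteins and cleavage were not measured.

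The 15 genes of chondroitin sulfate synthesis, which make the sugar chains that aggrecan carries, had few calls. Between genotypes 2 were higher and 0 lower on day 1, and 0 were higher and 1 lower on day 3. In WT, 3 rose with time and 1 fell, and in the cultures labelled Bcl3-/- 0 rose and 1 fell. The medians were 0.10, -0.01, 0.14 and -0.04 in the order of these comparisons. Ugdh (mean 113 FPKM) fell in WT (log2 -0.50 ± 0.08 SE, adjusted p = 0.000490), and Chst15 rose there (0.87 ± 0.14, adjusted p = 0.000496). Xylt1, which starts the chains, was higher in libraries labelled Bcl3-/- on day 1 (0.88 ± 0.21, adjusted p = 0.0147), and Papss2, which makes the sulfate donor, was lower in them on day 3 (-0.42 ± 0.10, adjusted p = 0.0202).

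Of 11 genes of growth plate signalling and hypertrophy, 7 were measured, and Ihh, Pthlh, Foxa2 and Nkx3-2 were too low. Fgfr3 fell with time in WT (log2 -1.10 ± 0.15 SE, adjusted p = 0.000152), as did Bmpr1b (-1.16 ± 0.23, adjusted p = 0.00194). Bmpr1b also fell in the cultures labelled Bcl3-/- (-0.97 ± 0.25, adjusted p = 0.0104). Between genotypes it was lower in libraries labelled Bcl3-/- on day 1 (-1.13 ± 0.23, adjusted p = 0.00759) and day 3 (-0.94 ± 0.25, adjusted p = 0.033). Fgfr3 was instead higher in them on day 3 (0.69 ± 0.15, adjusted p = 0.0148). Mef2c rose in WT (0.70 ± 0.13, adjusted p = 0.00104), Trps1 fell in the cultures labelled Bcl3-/- (-0.43 ± 0.11, adjusted p = 0.00937), and Pth1r had the highest level (mean 34.6 FPKM). In all, WT had 1 that rose and 3 that fell, the cultures labelled Bcl3-/- had 1 and 2, and between genotypes 1 was higher and 1 lower on day 1, and 3 were higher and 1 lower on day 3. The medians were -0.23 and -0.30 with time and -0.12 and 0.04 between genotypes. Of the other SOXD and SOXE genes, Sox13 had the highest level (mean 0.982 FPKM) and fell in WT (-0.68 ± 0.22, adjusted p = 0.0309), and Sox8 and Sox10 passed in no comparison.

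Markers of other cell types moved with the groups too, and their part in the values of the 10 genes was not tested. The summed level of 6 smooth muscle markers ran from 2973 to 3259 CPM in day 1 WT and 2647 to 2774 CPM in day 1 labelled Bcl3-/-. On day 3 it ran from 2548 to 2982 CPM in WT and 1974 to 2232 CPM in labelled Bcl3-/-. It was lowest in that last group, as were the means of Col2a1 and Acan. Acta2 carried most of the sum (1781 to 2621 CPM by group mean), and Des and Smtn passed in no comparison. The sum of 6 adipocyte markers ran from 32.4 to 45.1, 92.9 to 112, 57.1 to 103 and 224 to 292 CPM in the same order of groups. Lpl carried most of it (21.7 to 226 CPM by group mean), and Adipoq and Plin1 were near 0 (at most 13 and 4 reads). Like Matn4, this sum was lowest in day 1 WT and highest in day 3 labelled Bcl3-/-. Day 1 labelled Bcl3-/- was below day 3 WT for Matn4 but not for this sum. For 8 macrophage markers, carried mostly by Lyz2 (287 to 618 CPM by group mean), the sums were 302 to 479, 355 to 389, 653 to 982 and 403 to 804 CPM. For 6 endothelial markers they were 5.54 to 6.06, 8.04 to 11.4, 7.21 to 10.1 and 18.2 to 21.4 CPM, and for 6 glial and neural crest markers 7.31 to 8.42, 9.16 to 15.0, 8.83 to 14.1 and 14.3 to 24.9 CPM. Tek was the highest endothelial marker (2.35 to 16.2 CPM by group mean). No marker of these lists was at 0 in every library.

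The genes whose log2 CPM most resembled Acan over the 12 libraries, among 11991 genes with a mean log2 CPM of at least 1, were Cep126 (Pearson r = 0.963), Col2a1 (0.955), Igf2bp2 (0.953), Bcar1 (0.953) and Rdh10 (0.952). For Col2a1 they were Igf2bp2 (0.965), Ddah1 (0.964), Tgs1 (0.962), Acan (0.955) and Fam118a (0.955). Col2a1 and Acan were thus each among the 5 genes most like the other, but both were chosen on their values in these libraries. For Matn4 they were Mylk (0.996), Adamts2 (0.996), Cdkn1c (0.996), Smarca1 (0.995) and Pmp22 (0.995). These values describe 12 libraries from 6 cultures in 4 groups, and no p is given. Acan, Col2a1 and Matn4 were all chosen on their values in these libraries, so likeness to them is a description only. Of the tested genes, Comp (r = 0.81, rank 2131 of 11991) and Sox9 (0.78, rank 2385) were most like Matn4. Matn3 (0.68, rank 2630) was most like Acan, and Hapln1 (0.70, rank 2547) most like Col2a1. Many other genes thus ranked above each of them.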

How the data were processed

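Polyadenylated RNA of the 12 libraries was converted to cDNA with a SMART-seq kit and sequenced as paired ends. Per the labels and the study's methods, the authors trimmed reads with Trim Galore, aligned them with TopHat2 to the mouse genome (GRCm38, mm10), counted reads per gene with HTSeq and computed FPKM (fragments per kilobase of gene and per 1000000 mapped) with Cufflinks; versions, annotation release and strand setting are not given in the sources used here. The deposited counts are raw whole numbers for 49585 genes. The 5 entries outside genes (12.3% to 14.7% of the counts of a library) were left out. The deposited FPKM table was used for levels and alternatives, without 49 entries that hold several values and 1 other.

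Counts were tested with edgeR 4.0.16 (R 4.3.3): TMM factors (0.951 to 1.05), filterByExpr (16318 genes left), 1 model of 4 groups over all 12 libraries, the quasi-likelihood test, and Benjamini-Hochberg adjustment over all genes tested, at 0.05. SE is the fold change divided by the root of the F statistic. CPM are scaled by TMM, and log2 CPM carry a prior count of 2. Every adjusted p in the text is from edgeR unless another tool is named. The script was tested on simulated data. Symbols, positions and exon lengths are from GENCODE M21 (GRCm38), which held 49326 of the gene IDs. Named beside the 10 genes were Bcl3, per list up to 4 called genes with the smallest adjusted p and the gene of highest mean FPKM, and the 5 genes most like each of Acan, Col2a1 and Matn4; Rbpjl, Sox5os1, Cnmd, Matn1, Snorc, Col10a1 and other markers of the lists were named after their values were seen. The genes and lists were chosen with earlier results of these data known. Replicates are separate cultures from pooled pups. Same-numbered libraries of the days share a culture code; their deviations from the group means correlated at 0.24 to 0.33 in WT and at -0.16 to -0.02 in cultures labelled Bcl3-/-. The culture was the replicate block of an alternative fit (fixed for time, and for genotype a random effect in limma 3.58.1, correlation 0.197). The other alternatives were RLE factors, other count filters, DESeq2 1.42.0, a fit of the compared libraries only, limma on log2(FPKM + 1) or log2(FPKM + 0.1), and leaving out each library in turn.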

Additional observations from a re-analysis of the deposited data

How the results depend on the processing

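Of 730 single-gene fold changes recomputed under alternatives, 663 were counted as unchanged. For the 7 tested genes this meant the same direction and side of the threshold. For Acan, Col2a1 and Matn4, which have no test, it meant the same direction and a shift within a margin set from the SE. Of the 112 values of called genes, 84 kept their direction and side of the threshold and 28 fell short of it. Of the 7 tested genes, the day 1 genotype comparison called 2 with no count filter (Col9a1 and Sox9) and 0 to 1 with a library left out. Day 3 called 3 with no filter (Comp, Hapln1 and Sox5), 2 with DESeq2 (Comp and Hapln1) and 1 to 2 with a library left out. Time in WT called 0 on log2(FPKM + 1) and on log2(FPKM + 0.1), 1 on filtered FPKM and 0 to 2 with a library left out. Time in cultures labelled Bcl3-/- called 1 on both FPKM scales and 1 to 4 with a library left out. With the culture as replicate block it called 5. With the title number, which pairs no animals across genotypes, as replicate block, day 3 called 3 (Comp, Hapln1 and Sox5). Where not given in the report, the cause was not tested.

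Directions turned only for genes not called, or with no test. With a library left out, the ranges were -0.00 to 0.39 for Matn3 and -0.08 to 0.87 for Col9a1 (genotype, day 1 and day 3), -0.32 to 0.63 for Col9a1, -0.27 to 0.01 for Hapln1 and -0.12 to 0.39 for Sox5 (time in WT), and -0.01 to 0.18 for Sox9 (time, labelled Bcl3-/-). On the FPKM scales, Sox5 was -0.03 (time in WT), Sox9 -0.03 (time, labelled Bcl3-/-), and the difference of genotype effects between days was 0.16 for Acan and 0.13 for Sox6. The time difference of Acan in cultures labelled Bcl3-/- was -1.15 on log2(FPKM + 1), and that of Matn4 in WT was 3.93. Of the 10 genes, Matn3 had the lowest median read count (86 per library).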
